A study of Mus musculus with 22 samples.

Results

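Igh, the locus of the immunoglobulin heavy chain, and Ikzf1, the gene for the lymphoid transcription factor Ikaros, were followed through the lists of lamina-associated domains (LADs) of primary mouse embryonic fibroblasts (MEFs). Both loci lay wholly inside a LAD in each of the 11 lists, without a break, in untreated cells and under each treatment. What varied between lists was where that LAD ended. The edge beside the constant genes of Igh varied by only 2.09 kb over the 11 lists, while the far edge of the LAD that holds Ikzf1 varied by 2249 kb, both as deposited. The members were 2 loci that the study names, at chr12:114497000-117248000 for Igh (2751 kb) and chr11:11585000-11673000 for Ikzf1 (88.0 kb). Together they took up 284 of the 257854 bins of 10 kb on chromosomes 1 to 19 and X. The positions are in mm9, a build inferred from the submitters' processing notes because the lists themselves name none.

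The LADs came from DamID, in which the bacterial adenine methyltransferase Dam is fused to lamin B1 and marks DNA that touches the nuclear lamina. Dam without a fusion served as the control for accessibility, and the 22 samples, 11 of each kind, gave 11 lists. All cells were MEFs of C57bl/6 embryos at e13.5, grown for at most 5 passages. There were 3 WT lists (embryos 1.5, 1.8 and x17), from cells with no treatment and no control hairpin. The labels give embryos 1.5 and 1.8 the replicate number 1 and x17 the number 2, and the 3 WT lists were counted here as separate because the embryo names differ. The 2 shAC lists (embryos 1.5 and x17) came from cells infected with a hairpin virus against lamin A/C and selected with puromycin. Their Dam virus followed 4 days after infection and the cells were collected 48 h later. The drug lists, 2 each from embryos 1.8 and x17, came from cells given BIX01294 (which blocks G9a, a methyltransferase of histone H3), DZNep (which depletes EZH2 and its histone mark) or TSA (a blocker of histone deacetylases) for 18 to 24 h before the Dam virus. These cells were collected at 60 h, from a starting point the labels do not give. An embryo name shared between lists was read as 1 animal. No expression was measured in these samples, so neither the cell type nor the loss of lamin A/C could be checked here. The lists held 4683 to 9333 intervals as deposited and covered 57.0% to 65.6% of the chromosomes' span. They give positions without a level, so depth is unknown, and the spread between lists is the only measure of error. With 3 WT lists against 2 there are 10 splits, and the smallest p that the two-sided exact permutation test allows is 0.1.

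Igh holds the variable, diversity and joining segments that B cells recombine to build a heavy chain, followed by the constant genes that set the antibody class. In cells outside the B lineage the locus is silent, and in fibroblasts it is a classic example of a locus at the nuclear periphery. Ikzf1 encodes a zinc finger protein that directs lymphoid development and is likewise silent in fibroblasts. A fragment of Ikzf1 was used in the study as a sequence that draws a reporter to the lamina, and a region inside Igh served in its methods as a check of DamID material before sequencing. That check was stated for the study's own DamID, so whether these libraries passed it is not known. The RefSeq annotation of GRCm38.p6 was used here for names, order and promoter sequences. In it, 8 constant genes, Igha to Ighm, stand at the lower end of Igh, and Igha crosses the lower end of the annotated locus. These are followed by 4 joining segments (Ighj4 to Ighj1), 10 functional diversity segments and 121 functional variable segments, with 63 variable pseudogenes. The protein-coding genes Adam6b and Adam6a, which encode sperm membrane proteins, lie among them. The first protein-coding genes outside were Tmem121 below Igh, Zfp386 above it, 4930512M02Rik below Ikzf1 and Fignl1 above it. Lower and upper refer to the coordinate along the chromosome throughout.

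Dam methylates adenine only within the sequence GATC, so a stretch without this motif is read through the fragments around it. The promoters of Ikzf1 and of Zfp386, the gene that follows Igh, are shown because Ikzf1 is the gene inside one LAD and Zfp386 is the first gene above Igh in annotation order, near the variable end of the other. Whether Zfp386 lay inside that LAD was not tested. Each runs from 250 bases before the start to 50 after it, from RefSeq on GRCm38.p6, with any GATC in capitals. The promoter positions are in that build and cannot be compared with the mm9 positions of the loci and LAD edges.
Ikzf1 promoter 1, chr11:11685675-11685974, plus strand: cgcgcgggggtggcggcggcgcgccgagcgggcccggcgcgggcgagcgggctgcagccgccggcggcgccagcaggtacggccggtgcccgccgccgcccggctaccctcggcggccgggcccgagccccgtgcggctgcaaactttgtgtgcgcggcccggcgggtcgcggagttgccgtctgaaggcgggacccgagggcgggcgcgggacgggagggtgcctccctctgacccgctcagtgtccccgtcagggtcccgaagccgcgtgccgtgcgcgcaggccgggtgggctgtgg
Ikzf1 promoter 2, chr11:11689927-11690226, plus strand: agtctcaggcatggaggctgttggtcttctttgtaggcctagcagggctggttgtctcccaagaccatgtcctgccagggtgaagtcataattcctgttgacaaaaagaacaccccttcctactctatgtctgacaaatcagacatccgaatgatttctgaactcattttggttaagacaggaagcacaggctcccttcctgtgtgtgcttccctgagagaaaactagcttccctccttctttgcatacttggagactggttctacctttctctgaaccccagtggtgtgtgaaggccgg
Zfp386, chr12:116047474-116047773, plus strand: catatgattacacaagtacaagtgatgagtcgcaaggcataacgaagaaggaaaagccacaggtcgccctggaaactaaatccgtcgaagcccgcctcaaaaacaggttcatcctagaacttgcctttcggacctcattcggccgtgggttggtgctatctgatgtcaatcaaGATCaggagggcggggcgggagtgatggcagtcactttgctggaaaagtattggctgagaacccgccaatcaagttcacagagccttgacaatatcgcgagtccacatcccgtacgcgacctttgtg
Neither Ikzf1 promoter held a GATC, and the Zfp386 promoter held 1, starting at base 174 of the stretch. Over 32851 RefSeq promoters of this length, 48.0% held the motif, which reads the same on both strands. The GC content was 81.3% in Ikzf1 promoter 1 and 49.0% in promoter 2, against a median of 52.7% over all promoters.

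The first comparison asked whether either locus left the called LADs under any treatment. Igh was called along 100% of its length in each of the 3 WT lists, the 2 shAC lists and the 6 drug lists, with 0 breaks. This held in the lists as deposited and after gaps under 25 kb were joined and LADs over 100 kb kept. When Igh was cut into 10 equal parts, from the constant genes to the distal variable segments, each part was called along 100% in all 11 lists. Ikzf1 was likewise called along 100% with 0 breaks in all 11 lists, both ways.

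The loci were read against the rest of the genome in bins of 10 kb, a bin counting as called when at least 50% of it lay in a LAD. All 275 bins of Igh and all 9 bins of Ikzf1 were called in all 11 lists, against 45.5% of all bins. No bin of either locus was lost, that is, called in all 3 WT lists and in neither list of a treatment. Of all bins, 0.618% were lost under shAC, 0.122% under BIX01294, 0.226% under DZNep and 2.29% under TSA. The 284 bins are neighbours within 2 loci and are not independent, so their count of 0 beside these shares is no result about the loci. Neither locus could gain a bin, since each WT list already held them all. Genome-wide, 0.249% of bins were gained under shAC, 0.481% under BIX01294, 0.288% under DZNep and 0.549% under TSA. Because the lists hold no level, a weaker contact within a called LAD would not be seen.

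Unbroken cover over the whole length was rarer among windows as long as Igh than among windows as long as Ikzf1. Among 927 windows of the length of Igh laid end to end along the genome, 1.40% were called at every base in all 11 joined lists and 0.647% in the deposited ones. At a looser limit of 90% of the bases, 10.4% of the windows were called in all 11 joined lists and 10.7% in the deposited ones. For windows of the length of Ikzf1, of which there were 29295, the share called at every base was 37.9% in the joined lists and 31.3% in the deposited ones. At 90% of the bases these shares were 39.4% and 33.5%. The cover of Ikzf1 was thus common for its size, and that of Igh was shared with 13 of the 927 windows. The windows lie on a fixed grid, so a LAD little longer than a window seldom holds a whole one. These shares therefore do not give how usual a LAD as long as that of Igh is. In the joined lists that LAD was longer than 94.7% (shAC x17) to 96.9% (TSA) of the LADs of its own list.

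**Figure D1:**
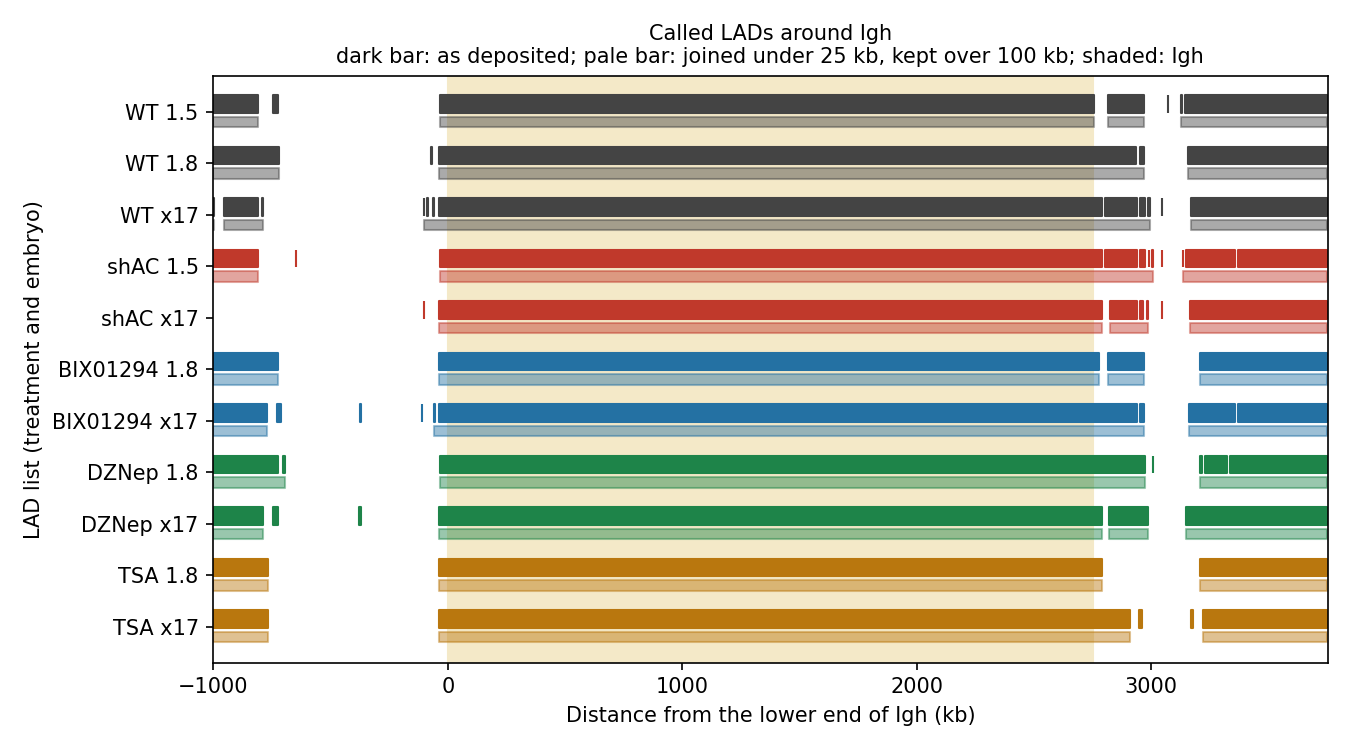
Called LADs around Igh in each list, with distance from the lower end of Igh in kb on the x axis and 1 row per list. Dark bars are intervals as deposited, pale bars are joined LADs and the shaded band is Igh. The LAD starts 34.5 to 36.5 kb below Igh in every deposited list, and the upper end varies from 4.45 to 220.0 kb above it.

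The LAD that holds Igh was 2.79 to 3.01 Mb long as deposited and exceeded 98.2% to 99.5% of the intervals of its own list in length. Its lower edge, beside the constant genes, lay 34.5 kb outside Igh in WT 1.5 and 35.3 kb outside in both WT 1.8 and WT x17. In shAC it lay 34.8 kb outside in embryo 1.5 and 35.4 kb in x17. Both BIX01294 lists placed it 36.2 kb outside. The DZNep lists gave 34.8 kb for 1.8 and 36.2 kb for x17, and the TSA lists 36.2 kb and 36.5 kb in the same order. All 11 edges thus fell between 114460450 and 114462540 on chromosome 12, at 6 distinct positions, and 4 lists shared the start at 114460811.

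To ask how usual such an edge is, each lower edge in the list of WT 1.5 was followed to its nearest lower edge in each of the other lists. Only 14 of these 4683 edges, or 0.299%, varied by no more than the lower edge of Igh, and the median edge varied by 196 kb. With WT 1.8 as the starting list the share was 0.185%, and with WT x17 it was 0.150%. The measure was chosen after the lists had been seen, and it belongs to the deposited lists. Its background includes the edges of many short intervals, with a median length of 88.7 kb in WT 1.5. A nearest edge need not belong to the same LAD. Edges of LADs about as long as that of Igh were not compared separately. After joining, WT x17 took in small intervals below the edge and started 101 kb outside Igh, and BIX01294 x17 started 58.1 kb outside. The other 9 lists kept their start, the spread became 66.3 kb, and 20.6% of the joined edges of WT 1.5 varied no more than that.

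**Figure D2:**
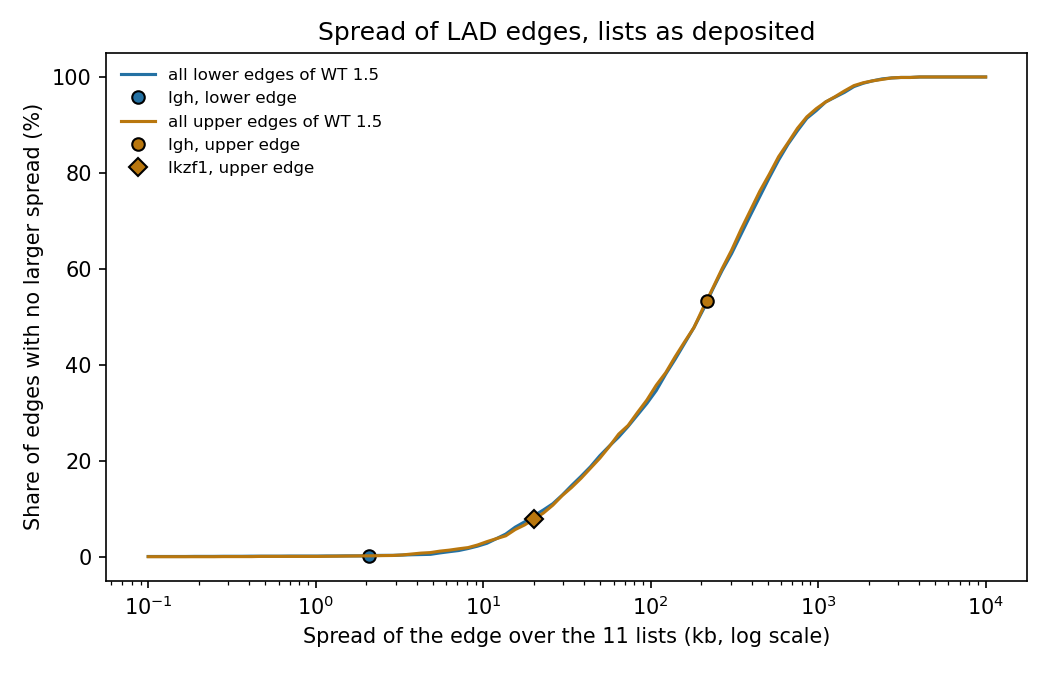
Spread of LAD edges over the 11 deposited lists, in kb on a log scale, against the share of edges of WT 1.5 with no larger spread. Lines are all lower and all upper edges, circles are Igh and the diamond is Ikzf1. The lower edge of Igh sits at 2.09 kb near the foot of the curve, the upper edge of Ikzf1 at 20.1 kb and the upper edge of Igh at 216 kb. The lower edge of Ikzf1 is not drawn, because its nearest edges in the other lists were not all those of the LAD that holds the gene.

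Differences between treatments at this edge were of 1.32 kb or less and did not pass the test. In WT the edge lay at a mean of 35.1 ± 0.513 kb (SD, n = 3) and in TSA at 36.4 ± 0.255 kb (SD, n = 2). The TSA mean was thus 1.32 kb farther out, with no overlap between the groups (two-sided exact permutation test, p = 0.1, adjusted over the 4 treatments p = 0.2). BIX01294 lay 1.14 kb farther out, also without overlap (exact permutation test, p = 0.1, adjusted p = 0.2). Among all lower edges of WT 1.5, both TSA lists lay outward of the 3 WT lists at 9.76% and both BIX01294 lists at 10.7%. DZNep differed from WT by 0.433 kb and shAC by 0.0228 kb (exact permutation tests, p = 0.6 and p = 0.8). In the joined lists the WT mean was 56.9 kb because of WT x17, and the direction turned for each treatment, with a TSA minus WT difference of -20.5 kb.

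At the other end, beside the distal variable segments and Zfp386, the LAD ended at several places. The upper edge lay 4.45 kb outside Igh in WT 1.5, 185 kb in WT 1.8 and 36.6 kb in WT x17. Both shAC lists ended 36.6 kb outside, at the same base as WT x17, 117284560. The BIX01294 edges lay at 23.6 kb (1.8) and 187 kb (x17), the DZNep edges at 220.0 kb and 36.7 kb, and the TSA edges at 37.2 kb and 156 kb. Hence 5 of the 11 lists, from 4 of the 5 conditions, ended within 600 bp of each other, between 117284560 and 117285160. The spread over the 11 lists was 216 kb, which 53.4% of the upper edges of WT 1.5 and 36.8% of those of WT x17 did not exceed. Treated means differed from WT by -38.9 kb (shAC) to 52.9 kb (DZNep), with groups that overlapped (exact permutation tests, p = 0.5 to 1). Means of the same-embryo differences were 16.1 kb (shAC), -5.35 kb (BIX01294), 17.4 kb (DZNep) and -14.3 kb (TSA). Over all lists, the direction of the mean difference changed with 1 list for each treatment. It turned without WT 1.8 for shAC, without WT 1.5 or the x17 list for BIX01294 and TSA, and without DZNep 1.8 for DZNep.

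Above the upper edge the lists followed a common outline. In the joined lists a first stretch of LAD ended between 117464306 and 117502744 in 9 of the 11 lists, either as part of the Igh LAD or as a separate LAD 58.3 kb or less beyond it. An uncalled gap followed, and a longer LAD then started between 117625093 and 117718787. The exceptions to the first stretch were the TSA lists. TSA 1.8 stopped at 117285160 and TSA x17 at 117404082, and their next joined LADs started at 117704920 and 117718787. BIX01294 1.8 and DZNep 1.8 started theirs almost as late, at 117703587 and 117703685. The gap above Igh was 419.8 kb in TSA 1.8 and 315 kb in TSA x17.

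The share of the 1 Mb above Igh that was called followed from this. It was 78.1% in WT 1.5, 81.2% in WT 1.8 and 82.7% in WT x17. In TSA it was 58.0% for embryo 1.8 and 68.5% for x17, both below the 3 WT lists. The mean fell short of WT by 17.4 percentage points (WT 80.7% ± 2.37, SD, n = 3, TSA 63.3% ± 7.43, SD, n = 2, exact permutation test, p = 0.1, adjusted p = 0.4). Within embryos the differences were -23.2 and -14.2 percentage points. In the 500 kb next to Igh the mean difference was -34.8 percentage points. Of 2569 windows of 1 Mb across the genome, both TSA lists lay below the 3 WT lists in 22.3%, so such a pattern was common under TSA. Bins lost under TSA made up 10% of this flank (10 of 100), against the 2.29% of all bins. These bins formed 2 runs, chr12:117400001-117460000 and chr12:117660001-117700000. The second run was also uncalled in BIX01294 1.8 and DZNep 1.8. A bin counted as lost only if both lists of a treatment left it uncalled. By that rule the other treatments lost 0 bins in this flank. Their shares were 87.2% and 78.3% in shAC, 72.3% and 80.6% in BIX01294, and 76.4% and 80.2% in DZNep, and overlapped with WT (exact permutation tests, p = 0.4 to 0.6). Within embryos both drugs also lay below WT, with differences of -8.90 and -2.12 percentage points for BIX01294 and of -4.81 and -2.53 for DZNep. The means of these same-embryo differences, the replicate block, were -5.51 and -3.67 percentage points, and that of TSA was -18.7. The TSA lists also covered less of the whole span, 57.7% (1.8) and 55.7% (x17), against 58.0% to 63.6% in WT. The part of this lower cover in the flank was not tested.

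Below Igh, past the constant genes and toward Tmem121 and the cysteine-rich protein genes Crip1 and Crip2, most of the DNA lay outside LADs. An uncalled gap of 658 to 773 kb separated the Igh LAD from the next joined LAD in 10 lists, and 60 of the 100 bins of the flank were called in no list. The share called in this 1 Mb was 22.7% in WT 1.5, 31.6% in WT 1.8 and 26.8% in WT x17. In shAC it was 22.7% in embryo 1.5 and 3.54% in x17. The list of shAC x17 lacked the neighbouring LAD, and its next joined LAD ended 3868 kb below Igh. What remained in its flank was the end of the Igh LAD itself. After joining, shAC x17 covered 56.8% of the whole span, against 58.0% to 63.6% in WT. Whether this lower cover had a part in the missing LAD was not tested. The shAC mean was 13.9 percentage points under WT (WT 27.0% ± 4.42, SD, n = 3, shAC 13.1% ± 13.6, SD, n = 2, exact permutation test, p = 0.1, adjusted p = 0.4). That value rests on 1 list: in embryo 1.5 the shAC and WT lists differed by -0.0375 percentage points, and without shAC x17 the difference was -4.32 percentage points. Both shAC lists lay below WT in 11.6% of all 1 Mb windows. Drug lists ranged from 24.9% to 34.2% and overlapped with WT (exact permutation tests, p = 0.5 to 1).

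**Figure D3:**
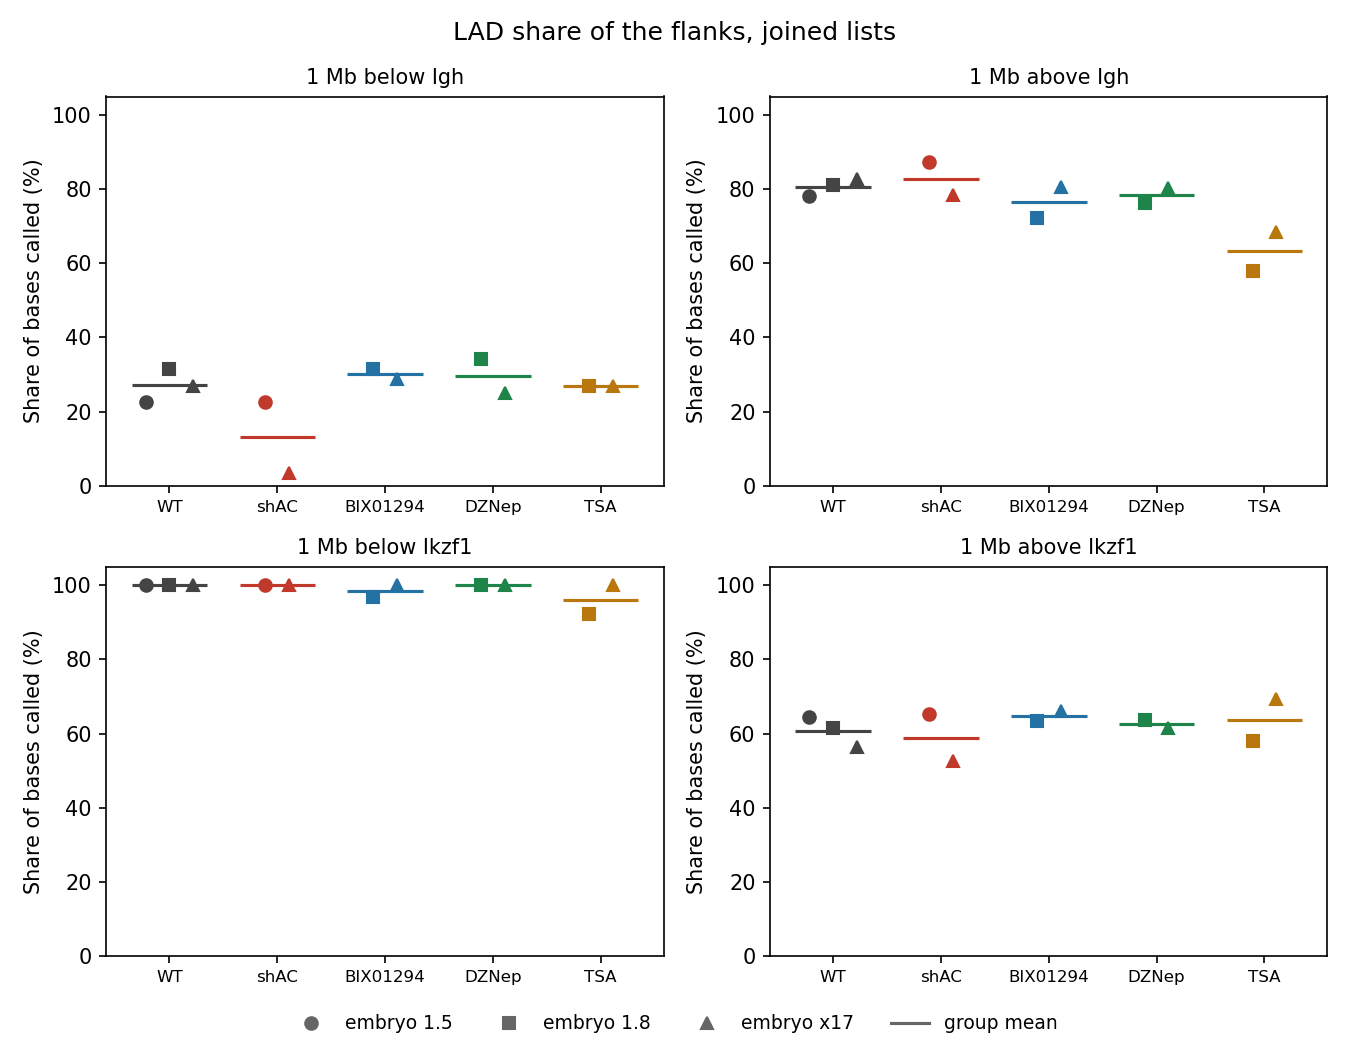
Share of bases called in the 1 Mb below and above each locus in the joined lists, in percent, by treatment. Points are lists, with the embryo as the shape, and bars are group means. TSA lies at 58.0% and 68.5% above Igh, under the WT range of 78.1% to 82.7%, and shAC x17 lies at 3.54% below Igh.

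Ikzf1 sat near the upper end of a long LAD. Its upper edge lay 29.1 kb outside the gene in WT 1.5, 11.6 kb in WT 1.8 and 12.6 kb in WT x17. In shAC it lay at 22.2 kb (1.5) and 15.0 kb (x17). The BIX01294 lists gave 31.5 kb (1.8) and 12.7 kb (x17), DZNep 31.7 kb and 13.7 kb, and TSA 15.0 kb and 12.6 kb. The 5 lists of embryo x17, which span all 5 conditions, lay at 12.6 to 15.0 kb. With WT 1.8 and TSA 1.8 they formed a group of 7 edges within 3335 bp, between 11684621 and 11687956. Another 3 lists, WT 1.5, BIX01294 1.8 and DZNep 1.8, ended within 2596 bp of each other, between 11702114 and 11704710. The spread over the 11 lists was 20.1 kb, and 7.92% of the upper edges of WT 1.5 varied no more than that. The share was 4.93% with WT 1.8 and 4.04% with WT x17 as the starting list. Joining moved 1 of these edges, that of shAC 1.5, to 42.0 kb.

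The upper edges of Ikzf1 overlapped between WT and each treatment. The WT mean was 17.8 ± 9.83 kb (SD, n = 3), and treated means differed from it by -4.00 kb (TSA) to 4.93 kb (DZNep) (exact permutation tests, p = 0.5 to 1). Within embryos the BIX01294 edge lay 0.0470 kb and 19.9 kb farther out than WT, and the DZNep edge 1.11 kb and 20.1 kb. The replicate block, the mean of these same-embryo differences, gave 9.97 kb and 10.6 kb, larger than the differences over all lists. The direction of each of the 4 differences over all lists turned when 1 list was left out. Beyond the edge, toward Fignl1 (a DNA repair ATPase), Ddc (the enzyme that makes dopamine and serotonin) and Grb10 (an adaptor of the insulin receptor), the lists shared an uncalled gap. In the joined lists it was 186 to 256 kb long. The next LAD started at the same base, 11939844, in 5 lists, and between 11939215 and 11947587 in 10. TSA x17 started it sooner, at 11871475.

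The 1 Mb above Ikzf1 was called at 64.4%, 61.4% and 56.5% in WT 1.5, 1.8 and x17. The shAC lists gave 65.3% (1.5) and 52.5% (x17), on both sides of WT. BIX01294 gave 63.4% and 66.1%, DZNep 63.6% and 61.6%, and TSA 58.1% and 69.2%, for embryos 1.8 and x17. Differences in means ran from -1.85 percentage points (shAC) to 3.98 percentage points (BIX01294), against a WT SD of 4.01% (n = 3, exact permutation tests, p = 0.4 to 0.7). The BIX01294 difference was 1.83 percentage points without WT x17 and 2.63 without BIX01294 x17. It was 5.33 without BIX01294 1.8 and 5.79 without WT 1.5. Within embryos the differences were 1.96 and 9.63 percentage points for BIX01294 and 2.13 and 5.11 for DZNep. The means of these, the replicate block, were 5.79 and 3.62 percentage points. For shAC and TSA the same-embryo differences had opposite signs. No bin of this flank was lost or gained under any of the 4 treatments. The TSA difference here, 2.89 percentage points, had the opposite sign to the one above Igh, and it turned without TSA x17.

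**Figure D4:**
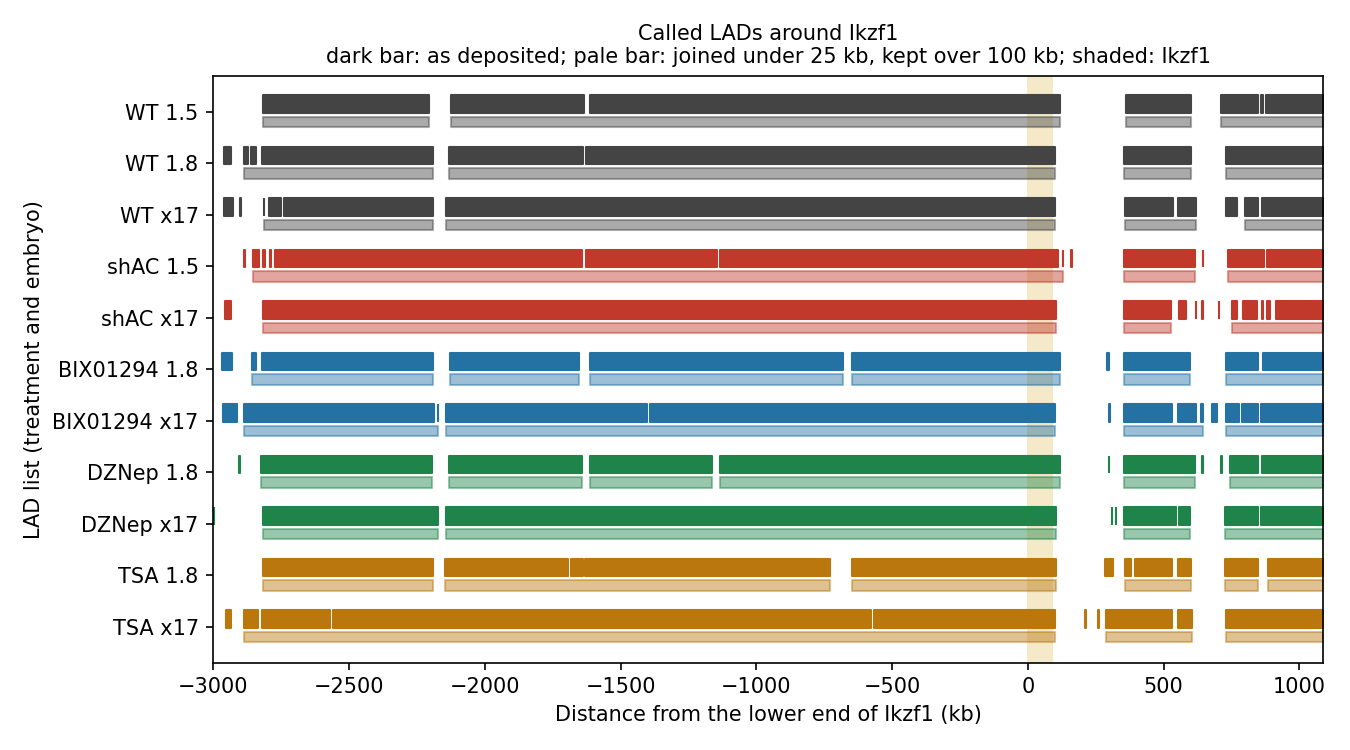
Called LADs around Ikzf1 in each list, with distance from the lower end of Ikzf1 in kb on the x axis and 1 row per list. Dark bars are intervals as deposited, pale bars are joined LADs and the shaded band is Ikzf1. The upper end lies 11.6 to 31.7 kb past the gene in each deposited list, and the lower end lies 567 to 2816 kb before it.

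On the lower side of Ikzf1 the annotation lists the sperm protein genes Spata48 and Zpbp, then Vwc2 and the transporter gene Abca13. Which of them lay in the LAD was not tested. Below Ikzf1 the LAD ran on for at least 567 kb in every deposited list. Its lower edge lay 1612 kb outside the gene in WT 1.5, 1629 kb in WT 1.8 and 2142 kb in WT x17. In shAC it lay at 1134 kb (1.5) and 2816 kb (x17), on both sides of WT. BIX01294 gave 649 kb (1.8) and 1391 kb (x17), DZNep 1134 kb and 2144 kb, and TSA 649 kb and 567 kb. The TSA and BIX01294 lists thus had shorter LADs than any WT list, and the DZNep and shAC lists overlapped with WT. Other LADs gave a measure of the same kind: 9175 windows of the length of Ikzf1 lay inside 1 LAD in each of the 11 deposited lists. For 89.1% of them the lower edge of that LAD varied by no more than the 2249 kb of Ikzf1. Neighbouring windows share LADs and are not independent.

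As deposited, the WT mean was 1794 ± 301 kb (SD, n = 3). The TSA mean differed from it by -1186 kb and the BIX01294 mean by -774 kb (exact permutation tests, each p = 0.1, adjusted p = 0.2). Without BIX01294 1.8 the latter was -404 kb. Among the 9175 windows, the lower edge lay inward of the 3 WT lists in both TSA lists for 23.3% and in both BIX01294 lists for 6.82%. The separation from WT depended on short gaps. In TSA x17 the LAD was cut by a gap of 10.1 kb, and in BIX01294 x17 by one of 13.1 kb. WT 1.5 and WT 1.8 were also cut, farther out, by gaps of 23.3 kb and 10.6 kb. After gaps under 25 kb were joined, the edge lay at 2125 kb, 2133 kb and 2142 kb in WT, at 649 kb and 2887 kb in TSA, and at 649 kb and 2142 kb in BIX01294. The groups then overlapped, and the TSA mean differed from WT by -366 kb (exact permutation test, p = 0.7, adjusted p = 0.7). The BIX01294 mean differed by -738 kb, close to its deposited value, through the list of embryo 1.8 (exact permutation test, p = 0.4, adjusted p = 0.533).

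What stayed after joining was a break in the embryo 1.8 lists of these same treatments. BIX01294 1.8 was cut at chr11:10904975-10935986 (31.0 kb) and TSA 1.8 at chr11:10857786-10936186 (78.4 kb), and their ends lay 200 bp apart. DZNep 1.8 was not cut there, and neither were WT 1.8 or the x17 lists. As a result the 1 Mb below Ikzf1 was called at 96.9% in BIX01294 1.8 and 92.2% in TSA 1.8, and at 100% in the other 9 joined lists. The mean differences from WT were -1.55 and -3.92 percentage points (exact permutation tests, each p = 0.4, adjusted p = 0.8), and each became 0 without the list of embryo 1.8.

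A second gap lay farther out and set the shAC lists beside the WT lists in another way. The 3 joined WT lists shared an uncalled stretch at chr11:9395633-9443067 (47.4 kb), 2142 kb below Ikzf1. Both shAC lists called it along 100%, and so did TSA x17. BIX01294 1.8 and DZNep 1.8 called 0% of it, and the other drug lists 7.30% to 37.6% in the joined lists. The joined LAD that holds Ikzf1 therefore reached 2854 kb and 2816 kb below the gene in shAC, beyond all 3 WT lists, a mean difference of 701 kb (exact permutation test, p = 0.1, adjusted p = 0.4). This gap and edge were picked out after the lists had been seen. Of the joined lower edges of WT 1.5, both shAC lists lay outward of the 3 WT lists at 7.26%, and 0.249% of all bins were gained under shAC. As deposited the shAC mean lay 181 kb beyond WT, with groups that overlapped (exact permutation test, p = 0.8), and without shAC x17 the difference was -661 kb.

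**Figure D5:**
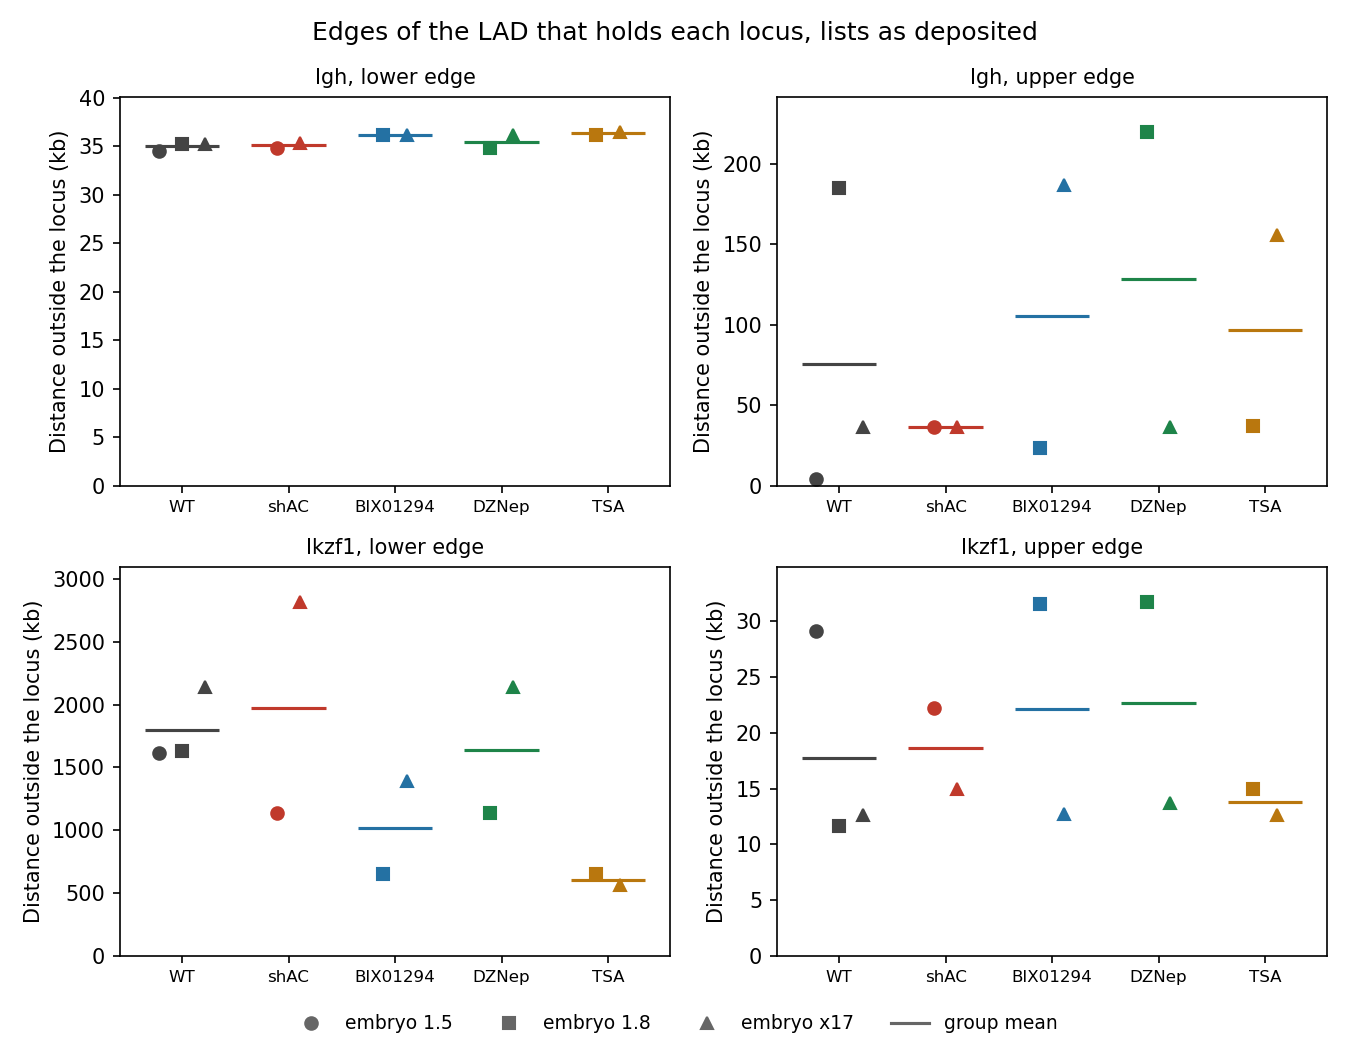
Distance from each locus to the edge of the LAD that holds it, in kb outside the locus, in the deposited lists by treatment. Points are lists, with the embryo as the shape, and bars are group means. The lower edge of Igh stays between 34.5 and 36.5 kb in all 11 lists, while the lower edge of Ikzf1 lies between 567 and 2816 kb.

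As deposited, Igh filled 2751 kb of a LAD of at most 3.01 Mb, with an edge 34.5 to 36.5 kb away on its constant side. The uncalled gap beyond that edge ran from 19.9 kb, where small intervals lay outside it, to 731 kb. Ikzf1, at 88.0 kb, was a small part of a LAD of 0.668 to 2.92 Mb, and its nearer edge lay within 31.7 kb of the gene in every deposited list. As deposited, the 3 WT lists, from 3 embryos, differed by 0.889 kb at the lower edge of Igh and by 530 kb at the lower edge of Ikzf1. This order turned on joining, where the WT edges lay 34.5 to 101 kb outside Igh and 2125 to 2142 kb outside Ikzf1.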

How the data were processed

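DamID-seq libraries of primary MEFs were analysed as the LAD lists that the authors deposited, 1 for each pair of Dam-lamin B1 and Dam-only libraries. The authors called LADs with LADetector from the ratio of the paired libraries. Each deposited list gives a chromosome, a start and an end, and no score. The aligner is not given in the sources used here, and mm9 is named in the submitters' processing notes only. Depth is unknown. The signal tracks were not used here.

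Samples were grouped by their labels, and loci were taken as the study names them. Starts were converted to count from 1. Intervals under 25 kb apart were joined and LADs over 100 kb kept for shares, breaks and bins, and edges were read from the deposited lists. Shares cover each locus and 1 Mb on either side. Treatments were compared with WT by two-sided exact permutation over 10 splits, with Benjamini-Hochberg adjustment over the 4 treatments of each measure. The pairing used in the replicate block comes from the embryo names. Named intervals were both loci, the LADs that hold them, breaks and the nearest genes in order. The edge tests, edge spreads and shared gaps were added after the lists had been seen, and the members and measures were chosen with earlier results of these data known. Gene names, order and promoters came from RefSeq on GRCm38.p6, whose positions were not set beside those of the lists. Computation used Python 3.11.15, numpy 2.4.6 and matplotlib 3.10.9. Interval arithmetic was tested on simulated data, with 0 mismatches in 200 sets. Alternatives were the deposited lists, joining under 50 kb, no minimum length, a minimum over 200 kb, flanks of 500 kb, loci widened by 50 kb, bins of 25 kb, each library left out and the replicate block.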

Additional observations from a re-analysis of the deposited data

How the results depend on the processing

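Of 584 alternative values for 64 results, 310 were 0 in both settings, 216 kept their direction, 45 turned, 8 moved from 0 and 5 became 0. Shares, breaks and bins of both loci were the same under every alternative run but one: with 50 kb added on each side, the share of Igh differed from WT by 0.126 (shAC), 0.181 (BIX01294), 0.143 (DZNep) and 0.182 (TSA) percentage points, and that of Ikzf1 by 5.69, 2.29, 2.62 and -2.13 percentage points. No difference passed the threshold under any setting, since no p under 0.1 is possible. The cause of the turns below was not tested.

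Below Igh the share difference became -1.94 (BIX01294) and -4.27 (DZNep) percentage points with a 500 kb flank, and for TSA 1.35 in the deposited lists and 5.43 with LADs over 200 kb. Above Igh it became -1.26 (deposited) and -0.841 (over 200 kb) for shAC, and 1.13 for DZNep with joining under 50 kb. Below Ikzf1 it became 0 for BIX01294 (50 kb joining or a 500 kb flank) and TSA (500 kb flank), and ranged from -3.10 to 0 and from -7.84 to 0 when 1 list was left out, at 0 without that treatment's list of embryo 1.8. Above Ikzf1 it became 7.20 for shAC (50 kb) and -3.17 for TSA (over 200 kb). In the joined lists the lower Igh edge differed by -21.8, -9.71, -21.4 and -20.5 kb (shAC, BIX01294, DZNep, TSA), and the upper Igh edge by -36.1, -27.7 and -59.4 kb (the 3 drugs). With the replicate block the upper Igh edge differed by 16.1 (shAC), -5.35 (BIX01294) and -14.3 kb (TSA), and the upper Ikzf1 edge by -2.28 (shAC) and 1.67 kb (TSA). The block turned no other difference. For the upper Ikzf1 edge it enlarged those of BIX01294 (9.97 kb) and DZNep (10.6 kb).

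Leaving out 1 list turned 24 values. Ranges of share differences were -2.15 to 7.18 (DZNep, turned without DZNep 1.8) and -2.27 to 2.14 percentage points (TSA, without WT 1.8) below Igh, and -2.42 to 6.50 above it (shAC, without shAC 1.5). Above Ikzf1 they were -8.23 to 4.53 (shAC, without shAC x17), -0.346 to 3.62 (DZNep, without WT x17) and -2.63 to 8.41 (TSA, without TSA x17). The lower Igh edge ranged from -0.273 to 0.316 kb (shAC, without WT 1.5 or shAC x17) and -0.271 to 1.14 kb (DZNep, without DZNep x17). The lower Ikzf1 edge ranged from -661 to 1022 kb (shAC, without shAC x17) and -661 to 349.8 kb (DZNep, 349.8 without DZNep 1.8 and 18.5 without WT x17). The upper Igh edge ranged from -74.3 to 16.1, -51.8 to 112, -38.8 to 145 and -38.3 to 80.7 kb, and the upper Ikzf1 edge from -2.83 to 6.46, -5.12 to 13.7, -4.06 to 13.9 and -7.08 to 1.67 kb (shAC, BIX01294, DZNep, TSA). For shAC the upper Ikzf1 edge also turned without WT 1.8 and, at -1.79 kb, without WT x17.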
